A study of Mus musculus with 6 samples.

Results

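The 8 genes described here are the mouse GADD45 genes Gadd45a, Gadd45b and Gadd45g and the antiproliferative genes Btg1, Btg2, Btg3, Tob1 and Tob2 of the BTG/TOB family. They were taken by gene name from a deposited table of 28476 genes, and all 8 were found. The members were chosen by family with their measured FPKM in HepKO and Flox livers already known, so those levels are given as a description. Whether a member was called in the fit over all genes is stated for completeness, and supports nothing about the set. Btg4, a further member of the family, is not analysed here.

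GADD45 proteins are small acidic stress proteins that are induced by DNA damage and other insults. They bind and activate the kinase MAP3K4 upstream of p38 and JNK, and they bind PCNA, p21 and the CDK1 and cyclin B complex, through which they slow the cell cycle. BTG and TOB proteins share an amino-terminal domain that binds the deadenylases CNOT7 and CNOT8 of the CCR4-NOT complex. Through it they recruit deadenylation to messenger RNAs, and their overexpression restrains entry into S phase.

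RNA came from whole livers of C57BL/6 mice labelled Nedd4 HepKO (3 libraries) or Flox (3 libraries). All mice were fasted overnight, received 300 mg/kg acetaminophen (APAP) intraperitoneally and were sampled 24 h later; APAP is an analgesic whose overdose kills pericentral hepatocytes. Age, sex, the Cre driver of the deletion and whether each library is 1 animal are not stated by the labels, and livers without APAP are not analysed here. The series title places NEDD4-1, a HECT-type ubiquitin ligase, as a suppressor of this injury. Values are FPKM, fragments scaled to transcript length and to the mapped fragments of the library, as the authors deposited them.

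Nedd4 was lower in each HepKO liver (0.618, 0.666 and 0.565 FPKM) than in any Flox liver (2.18, 2.59 and 2.23 FPKM), as the labels say. Libraries summed to 458487 to 496303 FPKM in HepKO and 456176 to 461723 FPKM in Flox livers. Mitochondrial genes took 24.6% of the FPKM of HepKO replicate 1, 17.2% and 18.3% of replicates 3 and 2, and 16.7% to 18.1% of the Flox libraries. In limma's test over the 12712 genes that averaged 0.5 FPKM or more, 1186 genes were called higher and 1397 lower in HepKO livers at an adjusted p under 0.05; after median-ratio rescaling the split was 1474 higher and 1060 lower.

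All 8 genes have few exons. GENCODE gives Gadd45a, Gadd45b and Gadd45g 4 exons each and coding lengths of 495, 480 and 477 bases, without the stop codon. Btg1, Btg2, Tob1 and Tob2 have 2 exons each, and Btg3 has 5. At most 5 exons were found in 28.1% of 10388 tested protein-coding genes, whose median was 9 exons. The coding length was 513 bases for Btg1, 474 for Btg2 and 756 for Btg3, against 1086 for Tob1 and 1035 for Tob2.

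The bases before the start site are shown for the members with the largest differences, Gadd45a and Btg2, for Btg1 as a further BTG gene, and for Tob1, whose groups overlapped. Each is the 250 bases before the RefSeq start, written 5′ to 3′ along the gene. Capitals mark TGACG (the shared core of a cyclic AMP response element, CRE), the octamer ATGCAAAT, the CCAAT box and the TATA box TATAAA, searched on both strands.
Gadd45a (GRCm38.p6, chr6:67037408-67037657, minus strand): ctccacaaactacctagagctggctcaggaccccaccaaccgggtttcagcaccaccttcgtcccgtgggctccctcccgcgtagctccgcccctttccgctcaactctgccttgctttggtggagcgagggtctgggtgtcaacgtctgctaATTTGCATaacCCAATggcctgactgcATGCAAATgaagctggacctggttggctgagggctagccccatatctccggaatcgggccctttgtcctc
Btg1 (GRCm38.p6, chr10:96616751-96617000, plus strand): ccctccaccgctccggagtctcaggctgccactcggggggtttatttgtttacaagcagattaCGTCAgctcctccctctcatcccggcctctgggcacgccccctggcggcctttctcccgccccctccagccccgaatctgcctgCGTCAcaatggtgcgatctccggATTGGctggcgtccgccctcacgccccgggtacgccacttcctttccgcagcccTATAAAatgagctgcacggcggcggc
Btg2 (GRCm38.p6, chr1:134079156-134079405, minus strand): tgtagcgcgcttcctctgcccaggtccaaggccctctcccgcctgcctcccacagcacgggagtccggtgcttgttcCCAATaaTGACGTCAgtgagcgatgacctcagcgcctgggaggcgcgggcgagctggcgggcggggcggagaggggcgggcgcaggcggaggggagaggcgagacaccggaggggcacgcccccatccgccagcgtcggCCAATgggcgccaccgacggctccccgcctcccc
Tob1 (GRCm38.p6, chr11:94211204-94211453, plus strand): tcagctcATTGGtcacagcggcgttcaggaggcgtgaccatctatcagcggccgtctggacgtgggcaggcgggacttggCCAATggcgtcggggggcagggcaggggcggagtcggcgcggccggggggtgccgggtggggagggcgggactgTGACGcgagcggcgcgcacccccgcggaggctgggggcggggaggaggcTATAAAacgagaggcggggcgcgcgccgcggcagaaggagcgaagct
The full palindromic CRE, TGACGTCA, was found only in Btg2 among the 8 genes, 166 bases before the start, and in 1.55% of 32851 promoter windows, searched over the same 250 bases. TGACG, which that palindrome also contains on both strands, was in Btg1, Btg2 and Tob1, and in 17.8% of all windows. The octamer occurred at 97 and 70 bases before the start of Gadd45a on either side of a CCAAT box, and once in Gadd45g; 1.60% of all windows held it. A CCAAT box was in 7 of 8 genes (all but Tob2; 33.8% of all windows), TATAAA in 4 (Gadd45b, Gadd45g, Btg1 and Tob1; 12.4%), and the GC box GGGCGG in 7 (all but Gadd45g; 32.7%). The E-box CACGTG was in Gadd45b and Gadd45g (6.02% of all windows), and the AP-1 sequence TGANTCA was in none of the 8 (6.75%). The ratio of observed to expected CpG ran from 0.52 in Gadd45a to 1.05 in Tob1, against a median of 0.37 over all windows. A match is a description of letters, and the start site used for Tob2 lies 470 bases from its deposited start.

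In HepKO livers the 3 GADD45 and the 3 BTG genes were higher than in Flox livers, and the 2 TOB genes overlapped between genotypes. By the fit over all genes, 6 of 8 members were called higher and 2 were not called, while 9.33% of all tested genes were called higher and 20.3% in either direction. The groups did not overlap for those 6 members, with HepKO higher, as was so for 17.2% of all tested genes, or 42.4% counting either direction. The median log2 fold change on log2(FPKM + 1) was 1.46 over the 8 members and -0.06 over all tested genes. Because the members were chosen with this contrast known, nothing is read from these shares. Whole liver was sampled, so more cells of a type and more RNA per cell cannot be told apart.

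**Figure D1:**
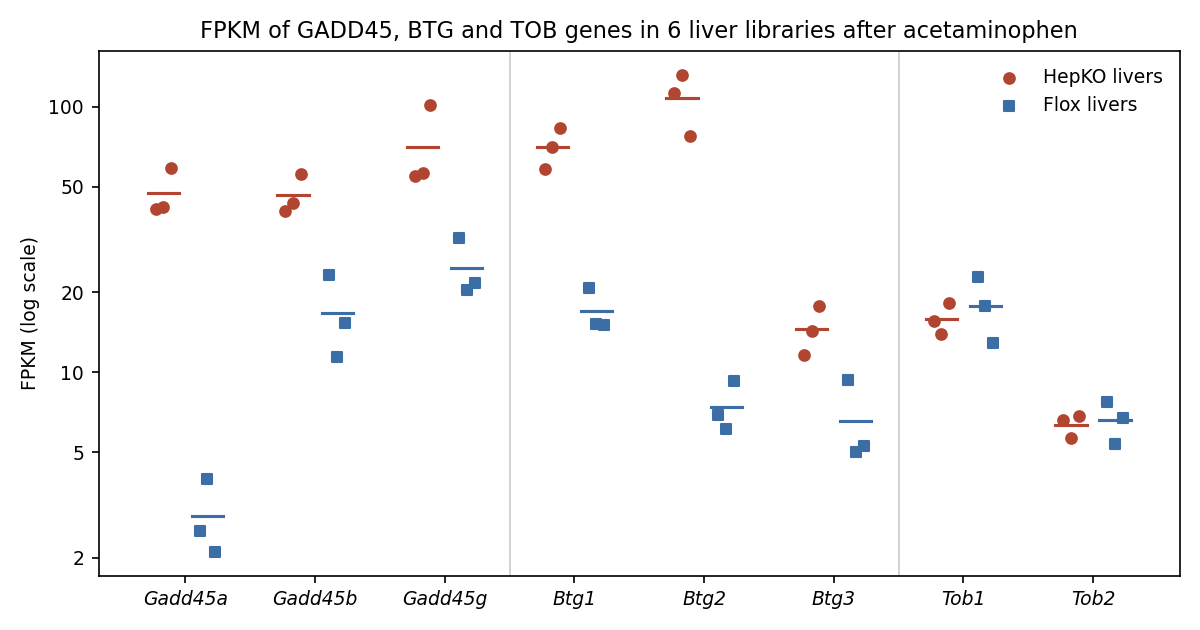
FPKM on a log scale for each member in 3 HepKO livers (red circles) and 3 Flox livers (blue squares), with bars at the group means and replicates 1 to 3 from left to right. Gadd45a and Btg2 are the members whose groups lie farthest apart, and Tob1 and Tob2 overlap.

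Gadd45a, a p53-inducible gene and the founding GADD45 member (ENSMUSG00000036390, chromosome 6, 67035096 to 67037406), had 41.1, 41.9 and 59.0 FPKM in HepKO livers, against 2.53, 3.97 and 2.11 FPKM in Flox livers. The lowest HepKO liver stood 10.3-fold above the highest Flox liver. The means were 47.3 ± 10.1 FPKM in HepKO and 2.87 ± 0.98 FPKM in Flox livers (SD, n = 3 each), a 16.5-fold difference and a log2 fold change of 3.65 (SE 0.22). Its place among all genes of the table was between the 96.8 and 97.5 percentile of each HepKO library and between the 70.9 and 79.0 percentile of each Flox library. An opposite-strand transcript, E230016M11Rik, overlaps it by 808 bases and averaged 0.097 FPKM.

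Gadd45b, known as a delayed early gene of liver regeneration and of NF-kB signalling (ENSMUSG00000015312, chromosome 10, 80930073 to 80932204), had 40.3, 43.5 and 55.8 FPKM in HepKO livers, against 23.3, 11.4 and 15.3 FPKM in Flox livers. The groups did not overlap, and the lowest HepKO value was 1.73-fold the highest Flox value. Its mean was 46.5 ± 8.21 FPKM in HepKO and 16.7 ± 6.02 FPKM in Flox livers (SD, n = 3 each), a 2.79-fold difference (log2 fold change 1.47, SE 0.25).

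Gadd45g, a cytokine-inducible member (ENSMUSG00000021453, chromosome 13, 51846678 to 51848468), had 54.6, 56.4 and 101 FPKM in HepKO livers, against 32.1, 20.4 and 21.7 FPKM in Flox livers. HepKO replicate 3 was far above the other HepKO livers, and no HepKO value fell into the Flox range. The means of 70.7 ± 26.2 FPKM in HepKO and 24.7 ± 6.43 FPKM in Flox livers (SD, n = 3 each) differed 2.86-fold, with a log2 fold change of 1.45 (SE 0.28). It was no longer called without Flox replicate 2 (log2 fold change 1.33) or Flox replicate 3 (1.37).

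Among the BTG genes, Btg2, a p53- and growth factor-inducible early gene also known as Tis21 (ENSMUSG00000020423, chromosome 1, 134075170 to 134079120), had 113, 132 and 77.8 FPKM in HepKO livers, against 6.89, 6.10 and 9.25 FPKM in Flox livers. Every HepKO liver was at least 8.40-fold above the highest Flox liver. The means were 108 ± 27.7 FPKM in HepKO and 7.41 ± 1.64 FPKM in Flox livers (SD, n = 3 each), a 14.5-fold difference and a log2 fold change of 3.68 (SE 0.23). On log2(FPKM + 1), Btg2 and Gadd45a had the 6th and 7th largest positive log2 fold changes of the 12712 genes tested. That scale understates changes of low genes, so the ranks depend on it. By ratio of means, Cxcl2 (50.7-fold) and Rgs16 (19.0-fold) differed more, with smaller log2 fold changes (3.45 and 3.33). The ranks are a description, because the members were chosen with this contrast known.

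Btg1, whose product is close in sequence to that of Btg2 and is abundant in quiescent cells (ENSMUSG00000036478, chromosome 10, 96617006 to 96622809), had 58.2, 70.7 and 83.3 FPKM in HepKO livers, against 20.7, 15.2 and 15.1 FPKM in Flox livers. The groups were well apart, with the lowest HepKO value 2.81-fold the highest Flox value. Its means of 70.7 ± 12.5 FPKM in HepKO and 17.0 ± 3.21 FPKM in Flox livers (SD, n = 3 each) differed 4.16-fold (log2 fold change 1.99, SE 0.18). A processed pseudogene, Gm14519, matches its transcript at 98.7% over 312 bases and averaged 0.144 FPKM.

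Btg3, also known as ANA (ENSMUSG00000022863, chromosome 16, 78332637 to 78376810), had 11.6, 14.3 and 17.8 FPKM in HepKO livers, against 9.39, 5.03 and 5.29 FPKM in Flox livers. Here the groups came closest without overlapping: HepKO replicate 1 was 1.24-fold Flox replicate 1. The means were 14.6 ± 3.08 FPKM in HepKO and 6.57 ± 2.44 FPKM in Flox livers (SD, n = 3 each), a 2.22-fold difference (log2 fold change 1.07, SE 0.25). Btg3 was no longer called without HepKO replicate 2 (log2 fold change 1.07), HepKO replicate 3 (0.93), Flox replicate 2 (0.93) or Flox replicate 3 (0.96). Of the called members, Btg3 kept its call in the fewest alternative settings (8 of 14). Its deposited span overlaps the opposite-strand gene Cxadr by 27138 bases, and Cxadr, an adhesion receptor gene, averaged 14.5 FPKM over the 6 libraries. Cxadr, picked with its values in view, was itself higher in HepKO livers (log2 fold change 0.58, limma adjusted p = 0.0174), a call lost without HepKO replicate 2 (0.0607), Flox replicate 2 (0.0577) or Flox replicate 3 (0.0515). Its part in the Btg3 difference was not tested. The kit marked strand, but no source used here says whether quantification used it. The processed pseudogene Gm7334 matches 756 bases of the Btg3 transcript at 100% and averaged 0.655 FPKM.

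Tob1, which encodes a TOB protein that also binds SMADs and the poly(A)-binding protein (ENSMUSG00000037573, chromosome 11, 94211454 to 94215495), had 15.6, 13.9 and 18.2 FPKM in HepKO livers, against 22.9, 17.7 and 12.9 FPKM in Flox livers. All HepKO values lay inside the Flox range. The means of 15.9 ± 2.13 FPKM in HepKO and 17.8 ± 4.99 FPKM in Flox livers (SD, n = 3 each) gave a log2 fold change of -0.13 (SE 0.21), with a 95% limma interval of -0.63 to 0.37. Tob2, its close homologue (ENSMUSG00000048546, chromosome 15, 81848272 to 81858796), had 6.60, 5.65 and 6.83 FPKM in HepKO livers, against 7.70, 5.37 and 6.72 FPKM in Flox livers. Again every HepKO value lay inside the Flox range. Its means were 6.36 ± 0.627 FPKM in HepKO and 6.60 ± 1.17 FPKM in Flox livers (SD, n = 3 each), with a log2 fold change of -0.04 (SE 0.14) and an interval of -0.38 to 0.30. Neither gene was called, which does not show that their levels were equal; the intervals leave room for changes of either sign.

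**Figure D2:**
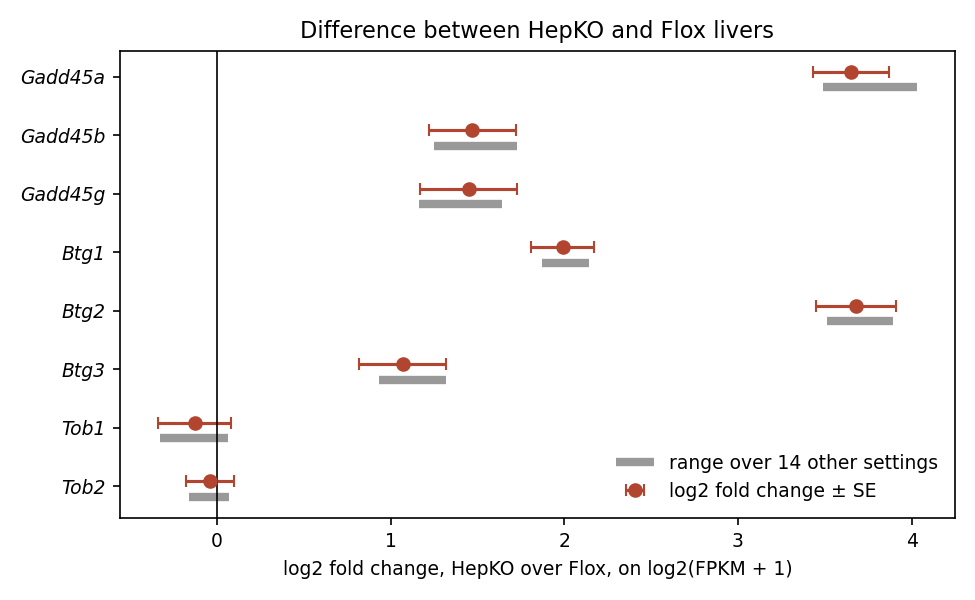
Log2 fold change of HepKO over Flox on log2(FPKM + 1) for each member, with its standard error (red), above the range of the estimate over 14 other settings, 6 of which leave out 1 library each (grey). The estimates for the GADD45 and BTG genes stay above 0 in each setting, and those for Tob1 (-0.33 to 0.06) and Tob2 (-0.16 to 0.07) span 0.

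The order of the 8 levels differed between the genotypes. FPKM are per length, so levels of different genes can be set side by side. In HepKO livers the order of mean FPKM was Btg2 (108), Btg1 and Gadd45g (70.7 each), Gadd45a (47.3), Gadd45b (46.5), Tob1 (15.9), Btg3 (14.6) and Tob2 (6.36). The ranges over libraries separated Gadd45b from Tob1 and Btg3 from Tob2, and those of every other pair of neighbours overlapped. In Flox livers the order was Gadd45g (24.7), Tob1 (17.8), Btg1 (17.0), Gadd45b (16.7), Btg2 (7.41), Tob2 (6.60), Btg3 (6.57) and Gadd45a (2.87). There the ranges separated Gadd45b from Btg2 and Btg3 from Gadd45a, and the other neighbours overlapped. Gadd45a was thus the lowest of the 8 in each Flox liver, and Tob1 was among the highest.

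The make-up of the families by transcript differed as well. The 3 GADD45 genes summed to 136 to 216 FPKM in HepKO livers and 35.8 to 57.9 FPKM in Flox livers. Gadd45a gave 27.3% to 30.2% of that sum in HepKO livers and 4.36% to 11.1% in Flox livers. Gadd45g gave the largest share in all 6 libraries, 39.8% to 46.8% in HepKO and 55.5% to 56.9% in Flox livers. The 3 BTG genes summed to 179 to 217 FPKM in HepKO livers and 26.3 to 37.0 FPKM in Flox livers. Btg2 gave 43.5% to 61.8% of it in HepKO livers and 18.6% to 31.2% in Flox livers, where Btg1 was the most abundant in each library, as it also was in HepKO replicate 3 (46.6%). Tob1 and Tob2 together summed to 19.6 to 25.0 FPKM in HepKO livers and 19.6 to 30.6 FPKM in Flox livers, with Tob1 giving 70.3% to 72.7% in HepKO and 65.7% to 76.7% in Flox livers.

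**Figure D3:**
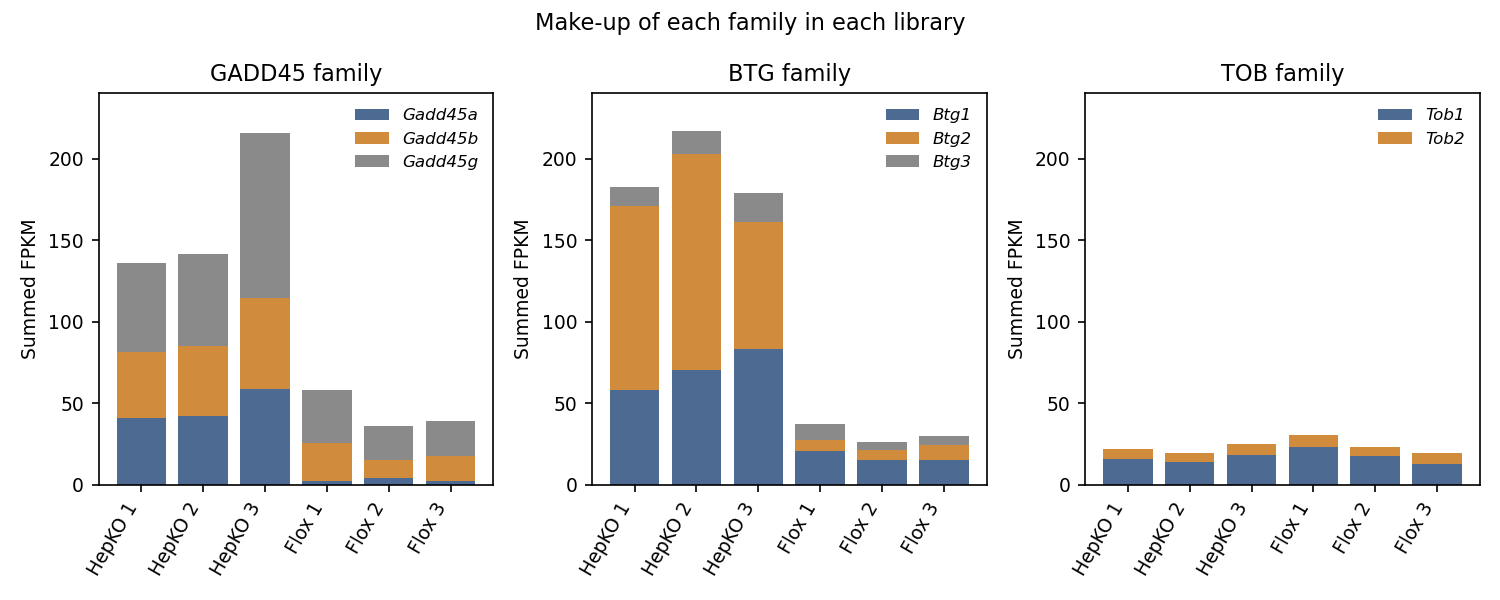
Stacked FPKM of the GADD45, BTG and TOB genes in each of 3 HepKO and 3 Flox libraries, on a common linear axis. Gadd45a and Btg2 take a larger part of their stacks in HepKO livers (27.3% to 30.2% and 43.5% to 61.8%) than in Flox livers (4.36% to 11.1% and 18.6% to 31.2%).

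Within a genotype the members did not all follow the same liver. HepKO replicate 3 held the highest HepKO value of 7 members, and the lowest of Btg2. On the log2(FPKM + 1) scale that library deviated from the HepKO mean by 0.33 for Gadd45a, 0.27 for Gadd45b and 0.57 for Gadd45g, but by -0.43 for Btg2. Among Flox livers, replicate 1 held the highest value of 6 members, with deviations of 0.51 for Gadd45b and 0.50 for Btg3. The exceptions were Gadd45a, highest in Flox replicate 2 (0.39), and Btg2, highest in Flox replicate 3 (0.30). Coefficients of variation ran from 9.86% (Tob2) to 37.1% (Gadd45g) in HepKO livers and from 17.7% (Tob2) to 37.2% (Btg3) in Flox livers. With 3 libraries a group, these deviations are a description. They were taken from FPKM as deposited, without rescaling. Median-ratio factors were 0.918, 0.973 and 1.02 for HepKO replicates 1, 2 and 3, and 1.03, 1.03 and 1.08 for the Flox replicates. The part of library scale in the deviations was not tested.

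**Figure D4:**
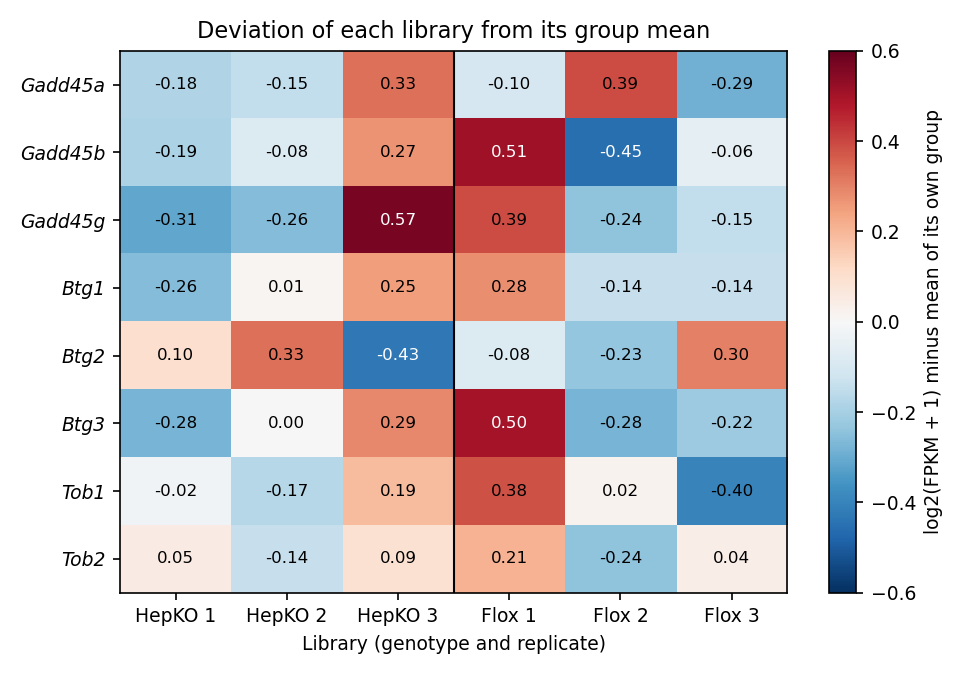
Deviation of each library from the mean of its own group on log2(FPKM + 1), for the 8 members (rows) in HepKO and Flox libraries (columns); red is above and blue below the group mean. Btg2 is below its group mean in HepKO replicate 3 (-0.43), where the other members are above theirs. Values are as deposited, without rescaling between libraries.

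Genes with the most similar profiles were sought over the 6 libraries among 10686 others that averaged 1 FPKM or more, as the smallest root mean square difference of centred log2(FPKM + 1) values. The measure follows the genotype difference and the deviations within groups together. For Gadd45a they were the chemokine genes Cxcl10 (0.298) and Cxcl2 (0.391) and the AP-1 gene Jun (0.402). Jun had 244, 218 and 369 FPKM in HepKO livers, against 40.3, 32.3 and 26.2 FPKM in Flox livers, and like Gadd45a it was highest in HepKO replicate 3. For Btg2 they were the early response gene Ier3 (0.143), the G-protein regulator Rgs16 (0.277) and the matricellular gene Ccn1 (0.283). Ier3 had 58.2, 71.5 and 32.0 FPKM in HepKO livers, against 3.52, 2.81 and 4.40 FPKM in Flox livers. It shared with Btg2 the order of the 6 libraries, highest in HepKO replicate 2 and lowest in Flox replicate 2. For Tob1, which was nearly level, they were the condensin II gene Ncaph2 (0.054), Gm19680 (0.060) and Pcbd2 (0.086), none of them called.

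Genes through which GADD45 and BTG proteins are known to act, and related genes, were taken from lists. Their counts are read beside the 20.3% of all tested genes that were called in either direction. Those lists of partner genes were drawn up with earlier results of these data known. Of 12 stress kinases downstream of GADD45, 11 were tested, with 1 higher, 1 lower and a median log2 fold change of 0.16. Mapk14, the main p38 gene, fell to 4.05, 8.28 and 7.64 FPKM in HepKO livers, against 11.5, 15.0 and 15.7 FPKM in Flox livers (log2 fold change -1.01, SE 0.25, limma adjusted p = 0.0332). Leaving out Flox replicate 2 or 3 ended the call (adjusted p = 0.10 and 0.0996). Mapk13, a p38 gene below the level set for naming and chosen after its values were seen, rose to 0.907, 0.874 and 0.564 FPKM in HepKO livers, against 0.317, 0.0997 and 0.249 FPKM in Flox livers (adjusted p = 0.0308), and was lost without Flox replicate 2 (0.0971) or 3 (0.0782). Without any 1 HepKO library Mapk13 no longer reached the level for a test. Map3k4, the kinase that GADD45 proteins bind, had 1.04, 0.980 and 1.01 FPKM in HepKO livers, against 1.09, 1.37 and 1.72 FPKM in Flox livers, and was not called (adjusted p = 0.211). Map2k7, which GADD45B is known to inhibit, had 2.99, 2.95 and 3.61 FPKM in HepKO livers, against 2.68, 3.17 and 3.25 FPKM in Flox livers (adjusted p = 0.792).

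Of 7 cell cycle and repair partners of GADD45, 4 were tested and 1 rose. Cdkn1a, which encodes the CDK inhibitor p21 that GADD45 proteins bind, had 69.8, 72.9 and 64.9 FPKM in HepKO livers, against 26.8, 19.9 and 27.4 FPKM in Flox livers. It was 2.80-fold higher (log2 fold change 1.46, SE 0.14, limma adjusted p = 0.00153). Pcna, the sliding clamp of DNA replication, had 19.9, 22.8 and 29.9 FPKM in HepKO livers, against 24.9, 20.7 and 23.3 FPKM in Flox livers (adjusted p = 0.834). Of 10 genes tied to DNA demethylation, for which GADD45 proteins have been proposed as adaptors, 7 were tested and 1 rose: Apobec1, a cytidine deaminase that edits Apob RNA, at 7.44 ± 0.126 FPKM in HepKO and 2.88 ± 0.355 FPKM in Flox livers (SD, n = 3; limma adjusted p = 0.00136).

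All 19 listed genes of the CCR4-NOT complex, of other deadenylases and of their partners were tested. Of them, 4 rose and 1 fell, around a median log2 fold change of -0.01. The 4 that rose include no CCR4-NOT subunit. Pabpc4, a poly(A)-binding protein gene, had 26.5 ± 0.938 FPKM in HepKO and 16.3 ± 2.36 FPKM in Flox livers (SD, n = 3; log2 fold change 0.67, limma adjusted p = 0.0123), and was lost without HepKO replicate 2 (0.0534). Noct, a rhythmic gene of the deadenylase fold, had 2.45 ± 0.332 FPKM in HepKO and 1.26 ± 0.215 FPKM in Flox livers (SD, n = 3; limma adjusted p = 0.0177), and was lost without HepKO replicate 2 (0.0626), Flox replicate 2 (0.0662) or Flox replicate 3 (0.0624). The others were chosen after their values were seen. Pabpc1 (limma adjusted p = 0.0320) and the arginine methyltransferase gene Prmt1 (0.0406) rose, and the CCR4-NOT subunit gene Cnot9 (0.0180) fell. Pabpc1 was lost without any 1 library other than Flox replicate 1 (0.0553 to 0.106), and Prmt1 without any 1 other than HepKO replicate 1 (0.0700 to 0.0958). Cnot9 was lost without HepKO replicate 2 (0.0731), Flox replicate 2 (0.0697) or Flox replicate 3 (0.0567). Cnot7, the deadenylase subunit bound by BTG proteins, had 2.76, 3.37 and 2.73 FPKM in HepKO livers, against 4.70, 3.00 and 3.08 FPKM in Flox livers (adjusted p = 0.428). Cnot8, its homologue, had 5.78, 7.32 and 7.41 FPKM in HepKO livers, against 8.30, 9.99 and 11.0 FPKM in Flox livers, without overlap but short of the threshold (adjusted p = 0.0653).

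**Figure D5:**
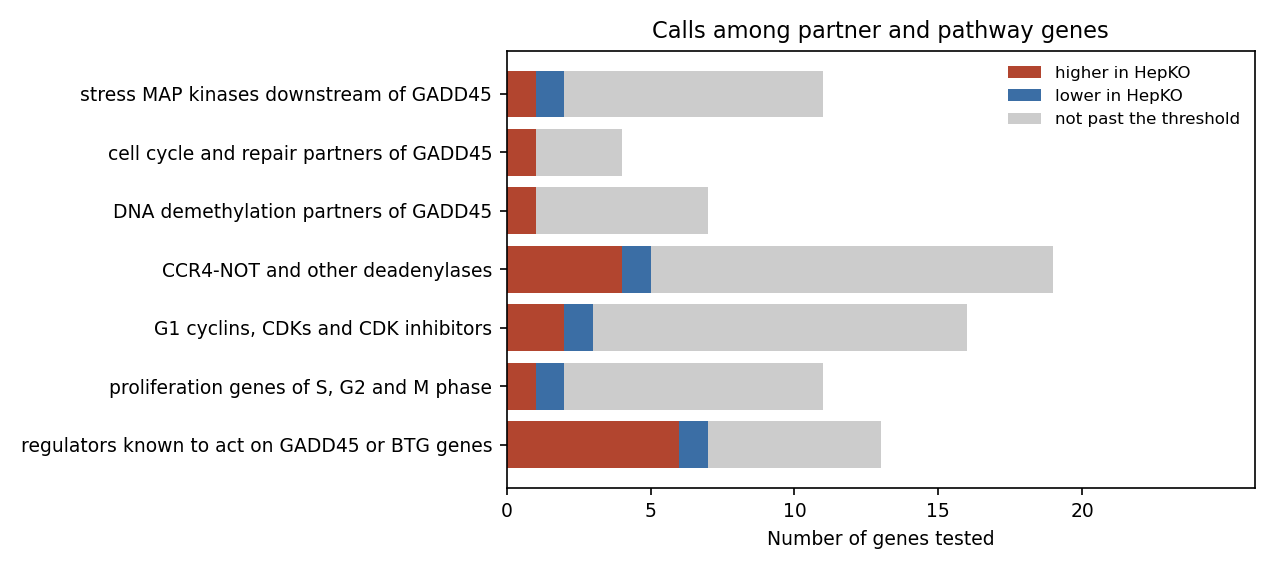
Number of tested genes in each partner or pathway list that were called higher in HepKO livers (red), called lower (blue) or not past the threshold (grey), by limma at an adjusted p under 0.05. The regulators have the most calls, 6 higher and 1 lower of 13, and the 19 deadenylase genes have 4 higher and 1 lower.

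G1 and proliferation genes encode the machinery that BTG and GADD45 proteins act upon or alongside. Of 16 tested G1 cyclins, CDKs and inhibitors, 2 rose and 1 fell. Ccnd1, the cyclin D1 gene, fell to 1.46, 1.29 and 1.19 FPKM in HepKO livers, against 2.74, 7.89 and 8.89 FPKM in Flox livers (log2 fold change -1.58, SE 0.35, limma adjusted p = 0.0248). The Flox livers were uneven, with replicate 1 the lowest, and the call was lost without any 1 of the other 5 libraries (adjusted p = 0.0618 to 0.0817). Besides Cdkn1a, Ccnd2, chosen after its values were seen, rose to 1.34 ± 0.213 FPKM in HepKO livers, against 0.661 ± 0.237 FPKM in Flox livers (SD, n = 3 each; limma adjusted p = 0.0480), and was lost without any 1 library other than Flox replicate 2 (0.0616 to 0.141).

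Of 25 proliferation genes, 11 reached the level for a test, 1 rose and 1 fell. Rrm2, a ribonucleotide reductase subunit gene, had 4.36, 5.21 and 5.20 FPKM in HepKO livers, against 0.764, 0.341 and 0.490 FPKM in Flox livers, 9.26-fold higher (limma adjusted p = 0.000567). Tk1, the thymidine kinase gene, had 0.335, 0.432 and 0.645 FPKM in HepKO livers, against 1.57, 3.27 and 2.72 FPKM in Flox livers (log2 fold change -1.23, SE 0.20, adjusted p = 0.00844). Rrm2 and Tk1 thus moved in opposite directions. The mitotic markers Mki67 and Top2a were at most 0.0756 and 0.0181 FPKM in HepKO livers and 0.0246 and 0.0308 FPKM in Flox livers, too low for a test.

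Of 14 regulators known to act on GADD45 or BTG genes, 13 were tested, 6 rose and 1 fell, with a median log2 fold change of 0.33. Egr1, an early growth response factor, had 181, 145 and 168 FPKM in HepKO livers, against 25.2, 20.2 and 21.9 FPKM in Flox livers, a 7.35-fold difference (log2 fold change 2.82, SE 0.13, limma adjusted p = 0.00026). Ddit3, the stress factor CHOP, had 40.6, 49.4 and 68.4 FPKM in HepKO livers, against 16.5, 33.1 and 25.3 FPKM in Flox livers (log2 fold change 1.07, SE 0.28, adjusted p = 0.0414); the groups did not overlap, and the call was lost without any 1 library other than Flox replicate 2 (0.0544 to 0.0999). Trp53, whose product is a known activator of Gadd45a and Btg2, had 9.33, 9.31 and 10.5 FPKM in HepKO livers, against 8.80, 9.34 and 10.6 FPKM in Flox livers (adjusted p = 0.923). Its target and inhibitor gene Mdm2 rose 1.64-fold (adjusted p = 0.0158; 0.0584 without Flox replicate 3). Foxo1 rose 1.89-fold (adjusted p = 0.0104). Foxo3 rose 1.59-fold (0.0245), lost without HepKO replicate 1 or 2 or Flox replicate 2 or 3 (0.0667 to 0.0848). Smad2 rose 1.78-fold (0.0357), lost without any 1 library other than Flox replicate 2 (0.0543 to 0.111). Foxo4 fell (log2 fold change -0.59, adjusted p = 0.0240), lost without any 1 Flox library (0.0526 to 0.0809). Mdm2, Foxo1, Foxo3, Foxo4 and Smad2 were chosen after their values were seen.

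Neutrophil markers were higher in HepKO livers, and the other marker lists were mixed, mostly not called or barely tested. Their calls are read beside the 20.3% of all tested genes called in either direction. All 10 tested neutrophil markers rose, and the summed level of the 12 listed was 758 to 880 FPKM in HepKO livers and 139 to 372 FPKM in Flox livers. Most of that sum was Lcn2 in each library (612 to 717 FPKM in HepKO and 128 to 351 FPKM in Flox livers). Lcn2 is also made by injured hepatocytes, so the sum is not a level of neutrophils alone. Its means were 671 FPKM in HepKO and 210 FPKM in Flox livers. Lcn2 was called, but lost without HepKO replicate 1 or 2 or Flox replicate 3. The next most abundant gene of the list was S100a9 (73.2 FPKM in HepKO and 8.56 FPKM in Flox livers). Ly6g, a defining neutrophil marker, averaged 0.124 FPKM in HepKO livers and was listed at 0 in each Flox liver. Of 9 tested markers of monocytes and infiltrating macrophages, 5 rose and 1 fell, and the list summed to 148 to 180 FPKM in HepKO and 92.3 to 115 FPKM in Flox livers. Of 10 Kupffer cell markers 1 rose, with sums of 134 to 174 FPKM in HepKO and 68.6 to 138 FPKM in Flox livers. The 11 T and NK cell markers summed to 0.893 to 1.37 FPKM in HepKO and 0.448 to 2.39 FPKM in Flox livers, with no marker high enough for a test. The 7 B and plasma cell markers summed to 2.53 to 3.34 FPKM in HepKO and 1.17 to 2.85 FPKM in Flox livers, with Ms4a1 listed at 0 throughout. The 1 of them tested, the immunoglobulin gene Ighm, was higher in HepKO livers (log2 fold change 0.70, limma adjusted p = 0.0363); it was picked with its values in view, and was lost without any 1 library other than Flox replicate 3 (0.0768 to 0.111). Endothelial and stellate cell markers each had 3 higher and 1 lower of 10, cholangiocyte markers 2 higher and 1 lower of 5, and of 10 hepatocyte markers 2 fell and 8 were not called. Endothelial sums were 40.9 to 52.8 FPKM in HepKO and 37.6 to 47.5 FPKM in Flox livers, stellate sums 49.0 to 69.0 FPKM in HepKO and 33.0 to 42.8 FPKM in Flox livers, and cholangiocyte sums 54.3 to 69.6 FPKM in HepKO and 30.4 to 40.2 FPKM in Flox livers. Hepatocyte markers, led by Alb, summed to 39400 to 44000 FPKM in HepKO and 36700 to 42900 FPKM in Flox livers. The part of these cells in the member levels was not tested.

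The 3′ UTRs of the members differed in AU-rich sequence. The pentamer ATTTA, the core of AU-rich elements of unstable messages, occurred at 9.11 per kilobase of the Btg3 3′ UTR, 3.91 for Tob1, 3.55 for Gadd45a, 2.64 for Btg1, 2.27 for Btg2 and 1.63 for Tob2, and was not found in Gadd45b and Gadd45g. These densities rest on few copies: 4 in 439 bases for Btg3, 3 in 767 for Tob1 and 2 in 563 for Gadd45a. Btg1 had 11 in 4166 bases. The median over 10388 genes was 1.22 per kilobase. The longer element TTATTTATT was in none of the 8 and in 6.62% of those genes.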

How the data were processed

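The deposited FPKM were computed by the authors, 1 column per library, per the file headers. Tools listed in the submitters' processing notes, without roles, are StringTie 1.3.4d, HISAT2 2.0.4, cutadapt 1.9, edgeR and DESeq2; the genome build was not given in the sources used. Of 28476 gene identifiers, 28396 are in GENCODE M21 (GRCm38), and 24678 have the same position there, as do 6 of the 8 members. Coordinates are therefore given as GRCm38. Among low genes, the commonest ratio between 2 libraries held 2.59% to 3.59% of genes. These ratios fitted together across libraries: in log2 they were 0.05 for HepKO replicates 1 and 2, 0.19 for 2 and 3, and 0.23 for 1 and 3. Low values may thus come in steps. Depth was not worked out from them, and no count test was run.

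Genes averaging 0.5 FPKM or more were fitted with limma 3.58.1 (R 4.3.3) on log2(FPKM + 1), genotype as the only term, variance trend, two-sided, Benjamini-Hochberg over 12712 genes, threshold 0.05. Log2 fold changes on this scale understate changes of low genes; folds are ratios of mean FPKM. The p-values measure the spread between libraries, which may be technical. Tables and plots used Python 3.11.15 and pandas 2.3.3. Replicate numbers did not pair libraries. Promoter sequences are RefSeq's (GRCm38.p6), and 8 of 8 members matched. Exon numbers, coding lengths and 3′ UTRs are those of the GENCODE basic transcript with the longest coding sequence, and near-identical copies were sought with BLAST 2.17.0 at 90% identity over 150 bases.

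The members and lists were chosen with earlier results of these data known. Named genes are the 8 members, Nedd4, up to 2 called genes per list with the largest change and a mean of at least 1 FPKM, the 3 closest profiles to 1 member per family, and the 2 most abundant genes of a marker list that moved. Any other gene was picked with its values in view, and the text says so for those that were called.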

Additional observations from a re-analysis of the deposited data

How the results depend on the processing

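The signs of the 6 called members held in 14 alternatives each. Gadd45a, Gadd45b, Btg1 and Btg2 were called in all 14, Gadd45g in 12 and Btg3 in 8; Btg3 was also lost with the low-value filter removed and with the replicate block. Against the residual SD between libraries of a group, the log2 fold change of Gadd45a moved by more with a pseudocount of 0.1 (4.03); Gadd45g moved by more than its SE without HepKO replicate 3 (1.16), as did Gadd45b (1.73) and, by about its SE, Btg3 (1.32) without Flox replicate 1. At a threshold of 0.01, 3 members (Gadd45a, Btg1 and Btg2) and 939 genes passed, with 0 stress kinases (5 at an unadjusted p under 0.05, limma), 0 deadenylase genes (6), 1 G1 gene and 1 regulator. Replicate numbers did not mark pairs (correlations of deviations 0.003, 0.002 and -0.025; no library was closest to its own number); the replicate block gave 1551 genes, 5 members, 1 stress kinase, 2 deadenylase genes, 1 G1 gene and 4 regulators. Stress kinases numbered 4 with a pseudocount of 0.1 or 0.5 or after median-ratio rescaling. Without a filter on low values there were 0 stress kinases (5 unadjusted), 2 cell cycle partners, 1 G1 gene and 3 regulators. Leaving out 1 library gave 1281 to 2257 genes (HepKO replicate 2 left out, 1281; Flox replicate 2, 1331; Flox replicate 3, 1483; HepKO replicate 1, 1616), 4 to 6 members, 0 to 2 stress kinases (0 without Flox replicate 2 or 3; 4 and 5 unadjusted), 0 to 6 deadenylase genes (0 without HepKO replicate 2; 6 unadjusted), 1 to 2 G1 genes and 2 to 5 regulators. Where 1 group then held 2 libraries, the pooled spread was used. Depth was not worked out, so counting error is not given.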
